A study of Homo sapiens with 6 samples.

Results

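The F-box receptors are the substrate-binding subunits of SCF ubiquitin ligases, and they are described here together with the 3 subunits that hold such a ligase together. The members were chosen by symbol and not by measured values: all protein-coding genes named FBXL, FBXO or FBXW with a number, plus CUL1, SKP1, RBX1, SKP2 and BTRC. This gave 66 genes of the 57500 in the table, of which 16 are FBXL, 35 are FBXO and 10 are FBXW genes. Another 2 genes with such symbols were not analysed here, and 2 FBXL symbols that RefSeq gives as pseudogenes were left out. RNA was sequenced after polyA selection from HEK293T, an established human embryonic kidney line, in 2 groups of 3 libraries. The PRMT1_OV libraries came from cells given a pcDNA3 plasmid with PRMT1 by PolyJet transfection, and the Mock libraries carry a vector control label. The genotype is labelled PRMT1 OV in the treated group and WT in Mock. Both share the cell line and culture conditions, and the labels do not say how Mock cells were treated beyond the vector control label or which share of the cells took up DNA. PRMT1 is the methyltransferase behind most asymmetric dimethylarginine, and the series is titled after the interplay of acetylation and ubiquitination in its homeostasis.

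In an SCF ligase, the cullin CUL1 binds the RING protein RBX1 at one end, which brings in the ubiquitin-loaded E2 enzyme, and the adaptor SKP1 at the other. SKP1 holds the F-box of an exchangeable receptor, and the rest of the receptor chooses the substrate: FBXW proteins through WD40 repeats, FBXL proteins through leucine-rich repeats, and FBXO proteins through other or unknown domains. Conjugation of NEDD8 to CUL1 switches the ligase on, the COP9 signalosome takes NEDD8 off again, and CAND1 exchanges receptors on the cullin.

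All levels are TPM, transcripts per length scaled to a total of 1000000 per library, all fold changes are differences of log2(TPM + 1) fitted with limma, and mRNA was measured, not protein. PRMT1 itself stood at 71660, 62890 and 84920 TPM in the PRMT1_OV libraries, against 378, 397 and 368 TPM in the Mock libraries, so each library matched its label. Per library, 18214476 to 23161613 reads could be recovered from the table, and 3 reads correspond to 0.459 to 0.526 TPM for a gene of 1 kb. The median log2 fold change over all 15341 tested genes was 0.30 in TPM and -0.01 after median-of-ratios scaling, which sets the typical gene equal between libraries, so a value near 0.30 marks a gene that moved with the bulk of the transcriptome. PRMT1_OV library 2 and Mock library 3 stood apart within their groups, with the largest SD of deviations from the group mean (0.225 and 0.249 on the log2 scale). For the epithelial label, 5 markers were listed, of which 4 reached the level for testing and none was called. Among them KRT8 and KRT18 stood at 78.8 and 84.4 TPM in PRMT1_OV and at 79.8 and 89.1 TPM in Mock. The levels of the other epithelial markers are not given here. Of 9 markers of mature kidney only LRP2 was tested, at 3.73 against 3.41 TPM, and the other 8 stayed under 1.5 TPM in every library. Of the HEK293 markers named here, NEFM (314 against 536 TPM) and NEFL (163 against 218 TPM) were lower in PRMT1_OV. Their list of 6 embryonic kidney and HEK293 markers held 5 tested genes, of which 1 was higher, 2 lower and 2 not called. Log2 fold changes in that list ran from -0.77 to 1.24. Of 10 markers of other cell types 7 stayed under 1 TPM, with CD3E at 0 in every library, PTPRC at 0 in every PRMT1_OV library and PECAM1 at 0 in every Mock library, and the list summed to 22.5 to 27.0 TPM in PRMT1_OV libraries and 18.7 to 23.6 TPM in Mock libraries. Within it ACTA2 was higher (11.2 against 3.58 TPM) and COL1A1 lower (9.83 against 15.2 TPM), and their part in the results was not tested. The labels do not say whether the 3 libraries of a group came from separate cultures, so p-values reflect only how far these libraries differ, a spread that may be technical. In such bulk libraries a change in all cells and a change in a share of the cells cannot be told apart.

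More receptors were higher than lower in PRMT1_OV cells, and the 1 large fall was that of FBXO5. Of the 66 members 53 reached 1 TPM in at least 3 of the 6 libraries and were tested. Of these, 32 were higher and 4 lower in PRMT1_OV at a limma adjusted p under 0.05, which is 60.4% and 7.55% of the tested members, beside 40.3% and 8.64% of all tested genes. The share of higher members thus lay above that of all genes and the share of lower members close to it. Their median log2 fold change was 0.51, with single values between -0.98 and 1.69. Values of the groups did not overlap for 40 members with PRMT1_OV above and 5 with PRMT1_OV below, where 49.8% and 11.6% of all tested genes did the same.

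Each receptor class held more higher than lower genes in TPM, whereas after median-of-ratios scaling the FBXL genes held 2 higher and 4 lower and the FBXW genes 1 of each. Among FBXO genes 19 of 28 tested were higher and 2 lower, with a median log2 fold change of 0.57. Of 13 tested FBXL genes 7 were higher and 2 lower, with a median of 0.43, and of 7 tested FBXW genes 4 were higher and 0 lower, with a median of 0.51. Among CUL1, SKP1, RBX1, SKP2 and BTRC, 2 were higher and 0 lower. None of these classes was tested against another. Of the 32 higher members, 8 had a mean TPM at least 2-fold that of Mock. The share of all tested genes at that limit was not counted, so this number is a description only.

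**Figure D1:**
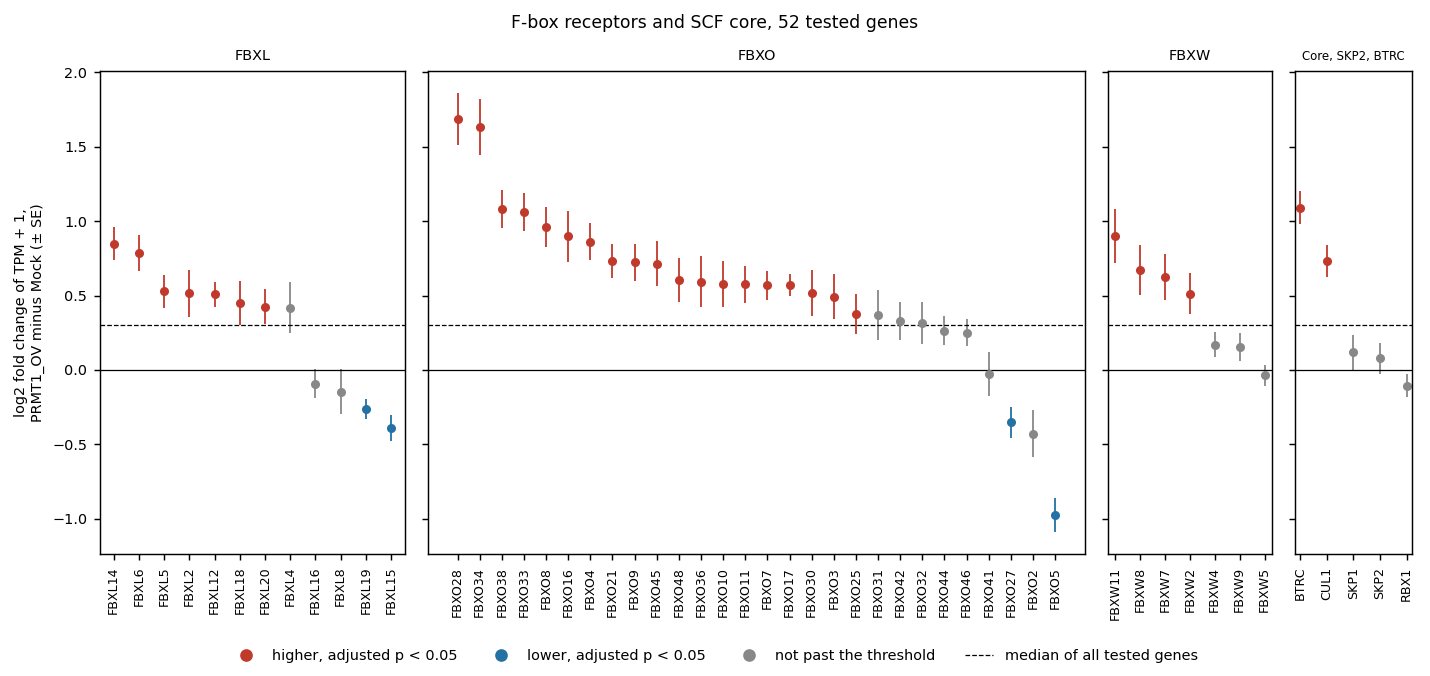
Log2 fold change of TPM + 1 (PRMT1_OV minus Mock, y axis) of 52 tested members, ordered within the FBXL, FBXO and FBXW classes and the group of CUL1, SKP1, RBX1, SKP2 and BTRC. Points are limma estimates from 3 libraries a group, bars are ± 1 SE, colours give the call and the dashed line is the median of all tested genes at 0.30. FBXO28 and FBXO34 lie above 1.6 and FBXO5 lies at -0.98.

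The excess of higher members over lower ones was smaller under most other scalings. After median-of-ratios scaling 15 members were higher and 11 lower, beside 22.5% and 25.5% of all genes, and the median of the members was 0.16 against -0.01 for all genes. After correction for GC content 17 were higher and 9 lower, beside 23.7% and 25.4% of 15276 genes. Quantile normalization gave 15 and 8 (20.3% and 19.4% of all genes), and rescaling without PRMT1 gave 40 and 2 (49.2% and 5.74%). Without PRMT1_OV library 2 and Mock library 3, 25 members were higher and 4 lower (37.2% and 13.8%). The same 12 members were higher in TPM and in all 5 of these settings: FBXO28, FBXO34, BTRC, FBXO38, FBXO33, FBXO8, FBXW11, FBXO4, FBXL14, FBXO21, CUL1 and FBXO45. FBXO5 and FBXL15 were lower in all of them. The shares of all tested genes that kept a call in every setting were not counted, so these counts are descriptions only.

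The scaffold rose, while the adaptor and the RING subunit were not called. CUL1, the cullin that carries the complex, stood at 43.2, 51.1 and 42.1 TPM in PRMT1_OV and at 28.9, 27.7 and 24.3 TPM in Mock. The groups did not overlap, and the log2 fold change was 0.73 (± 0.11 SE, adjusted p = 0.00138 by limma), or 0.36 after median-of-ratios scaling and 0.34 after GC correction. An antisense gene (6.04 TPM in PRMT1_OV and 1.79 TPM in Mock) covers 10.9% of its exonic bases. SKP1, the adaptor shared by all F-box receptors, had 23.1, 27.2 and 21.7 TPM in PRMT1_OV and 23.1, 23.3 and 19.6 TPM in Mock. Its groups overlapped and its log2 fold change of 0.12 missed the threshold (limma adjusted p = 0.429), whereas it was -0.25 after median-of-ratios scaling (adjusted p = 0.031) and -0.33 after GC correction (adjusted p = 0.00285). RBX1, which recruits the E2, had 87.7, 91.8 and 84.98 TPM in PRMT1_OV and 88.7, 93.5 and 103 TPM in Mock. Its groups overlapped too, with a log2 fold change of -0.11 in TPM (limma adjusted p = 0.298), -0.48 after scaling (adjusted p = 0.00693) and 0.002 after rescaling without PRMT1. Across all alternatives the adjusted p of SKP1 ran between 0.00285 and 0.951 and that of RBX1 between 0.00595 and 0.984.

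A ratio of genes within a library does not depend on its scaling. SKP1 per CUL1 was 0.534, 0.533 and 0.514 in PRMT1_OV libraries and 0.799, 0.8415 and 0.806 in Mock libraries, a mean of 0.527 ± 0.011 against 0.816 ± 0.023 (SD, n = 3 each). All PRMT1_OV ratios lay below all Mock ratios, and the exact two-sided permutation test gave p = 0.1, the smallest that 3 against 3 libraries allow. The annotated exons of SKP1 add up to 12771 bases, far more than the 3548 of CUL1, so the level of SKP1 relative to other genes is uncertain. The same lengths apply to every library, so they do not alter how SKP1 per CUL1 compares between libraries. Whether the groups used different exons of SKP1 was not examined.

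Both copies of the β-TrCP receptor rose. BTRC and FBXW11 are close paralogues that bind the same phosphorylated motif in β-catenin and IκBα. BTRC (chromosome 10, 101354033 to 101557321) had 10.3, 11.3 and 10.2 TPM in PRMT1_OV libraries, against 4.66, 4.69 and 4.03 TPM in Mock libraries. All PRMT1_OV values lay far above all Mock values, with a log2 difference of 1.09 (± 0.11 SE, adjusted p = 0.000325 by limma) that stayed past the threshold under all 19 alternatives of scaling, filter, model and left-out library, between 0.64 and 1.23. FBXW11 (chromosome 5, 171861549 to 172006873) had 47.4, 56.8 and 47.3 TPM in PRMT1_OV and 30.9, 30.9 and 19.4 TPM in Mock. Mock library 3 was the lowest, and the log2 fold change was 0.90 (± 0.18 SE, adjusted p = 0.00528 by limma). FBXW11 was the more abundant paralogue in every library. Its ratio to BTRC was 4.602, 5.02 and 4.63 in PRMT1_OV and 6.63, 6.59 and 4.81 in Mock. These ratios overlapped, because Mock library 3 lay among the PRMT1_OV values, and the exact two-sided permutation test gave p = 0.2.

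The other called FBXW genes rose less, and none of them stayed past the threshold after median-of-ratios scaling. FBXW7, the receptor for cyclin E, MYC, NOTCH1 and JUN, had 3.84, 5.22 and 3.71 TPM in PRMT1_OV and 2.4995, 2.41 and 2.24 TPM in Mock. The groups were apart with a log2 difference of 0.62 (± 0.15 SE, adjusted p = 0.0114 by limma), and it was 0.33 after scaling (adjusted p = 0.0534, and between 0.0011 and 0.284 over the alternatives). FBXW8, which works with CUL7 as well as CUL1, had 15.1, 14.2 and 16.006 TPM in PRMT1_OV and 10.7, 10.3 and 6.77 TPM in Mock, a log2 fold change of 0.67 (limma adjusted p = 0.0122). FBXW2 had 11.7, 12.8 and 10.8 TPM in PRMT1_OV and 9.23, 8.19 and 6.56 TPM in Mock, a log2 fold change of 0.51 (limma adjusted p = 0.0168). Its call was lost without PRMT1_OV replicate 1 (adjusted p = 0.0505) or 2 (adjusted p = 0.0518). FBXW5, the most abundant FBXW gene, was not called at 79.3 ± 1.81 TPM in PRMT1_OV and 81.3 ± 3.87 TPM in Mock (SD, n = 3 each), and after median-of-ratios scaling it was lower (-0.41, adjusted p = 0.00555), but not after GC correction (-0.05, adjusted p = 0.428).

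SKP2, the leucine-rich receptor that targets the CDK inhibitor p27, was among the most abundant receptors and was not called. It had 99.98, 118 and 97.3 TPM in PRMT1_OV and 104, 107 and 88.5 TPM in Mock. The groups overlapped with a log2 fold change of 0.08 (limma adjusted p = 0.569), whereas after median-of-ratios scaling it was -0.30 (adjusted p = 0.00933) and after GC correction -0.38 (adjusted p = 0.00112). CKS1B, the cofactor with which SKP2 binds p27, had 341 ± 29.6 TPM in PRMT1_OV and 379 ± 59.5 TPM in Mock (SD, n = 3 each). SKP2 per CKS1B was 0.299, 0.318 and 0.310 in PRMT1_OV libraries and 0.245, 0.266 and 0.284 in Mock libraries. The ratios did not overlap, with the PRMT1_OV ratios above, and the exact two-sided permutation test gave p = 0.1, the smallest possible.

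Of the FBXL genes, FBXL14 and FBXL6 rose most. FBXL14, a receptor for the transcription factor SNAI1, had 22.1, 20.5 and 20.5 TPM in PRMT1_OV and 12.01, 12.1 and 9.70 TPM in Mock. The groups were well apart, with a log2 difference of 0.85 (± 0.11 SE, adjusted p = 0.000851 by limma) that passed under all 19 alternatives. FBXL6 had 17.0, 16.4 and 14.7 TPM in PRMT1_OV and 7.62, 9.15 and 9.91 TPM in Mock, a log2 fold change of 0.79 (limma adjusted p = 0.00164). It shares 31.7% of its exonic bases with SLC52A2 on the opposite strand, whose mean TPM was 47.8 in PRMT1_OV and 44.8 in Mock, and without a stated strand setting reads of the pair cannot be told apart. Its call was lost under quantile normalization (0.38, adjusted p = 0.0565). FBXL12 had 29.5, 31.5 and 32.7 TPM in PRMT1_OV and 22.7, 21.2 and 21.1 TPM in Mock (log2 fold change 0.51, limma adjusted p = 0.00221), and it was 0.14 after median-of-ratios scaling (adjusted p = 0.228).

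FBXL5, the iron-sensing receptor for the iron regulatory protein IREB2, rose in TPM and was not called under several other scalings. Its values were 27.3, 31.0 and 25.2 TPM in PRMT1_OV and 19.8, 20.1 and 17.1 TPM in Mock, a log2 difference of 0.53 (± 0.11 SE, adjusted p = 0.00593 by limma), which was 0.16 after median-of-ratios scaling (adjusted p = 0.109) and 0.06 after GC correction (adjusted p = 0.466). FBXL2 had 2.95, 3.50 and 2.70 TPM in PRMT1_OV and 1.67, 2.25 and 1.60 TPM in Mock (log2 fold change 0.51, limma adjusted p = 0.0298), and was not called after median-of-ratios scaling (0.25, adjusted p = 0.174), GC correction (0.14, adjusted p = 0.366) or quantile normalization (0.10, adjusted p = 0.604). FBXL18 had 5.92, 6.95 and 6.10 TPM in PRMT1_OV and 4.65, 5.08 and 3.49 TPM in Mock (log2 fold change 0.45, limma adjusted p = 0.0376), and this was -0.01 under quantile normalization (adjusted p = 0.93). The groups of both genes were apart by little, and both calls were lost when any 1 of several libraries was left out. FBXL2 was not called without PRMT1_OV replicate 1 or 2 or Mock replicate 1 or 3 (adjusted p = 0.0707, 0.0802, 0.0907 and 0.0718). FBXL18 was not called without any 1 of the PRMT1_OV replicates 1 to 3 (adjusted p = 0.0706, 0.0999 and 0.0745) or without Mock replicate 1 or 3 (adjusted p = 0.0689 and 0.0725).

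Lower in PRMT1_OV among the FBXL genes were FBXL15 and FBXL19. FBXL15, a receptor for the ubiquitin ligase SMURF1, had 31.3, 34.6 and 31.975 TPM in PRMT1_OV and 45.1, 44.5 and 39.6 TPM in Mock. Its groups did not overlap, and the log2 fold change of -0.39 (± 0.09 SE, adjusted p = 0.00809 by limma) passed under all 19 alternatives, between -0.76 and -0.28. FBXL15 shares 27.7% of its exonic bases with PSD on the opposite strand. FBXL19, whose CXXC zinc finger binds CpG islands, was the second most abundant receptor in Mock, with 102, 96.7 and 103 TPM in PRMT1_OV and 124, 123 and 115 TPM in Mock. The groups were apart with a log2 difference of -0.26 (± 0.07 SE, adjusted p = 0.0142 by limma). The call was lost without Mock replicate 1 (adjusted p = 0.0649) or 2 (adjusted p = 0.0512) and after rescaling without PRMT1 (-0.16, adjusted p = 0.0915).

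The strongest rises of the whole family were those of FBXO28 and FBXO34, and the strongest fall was that of FBXO5. The sequences upstream of these genes and of FBXO38 are shown because they belong to the largest fall and the 3 largest rises among the members with a RefSeq promoter entry. BTRC rose slightly more than FBXO38 but has no entry in the table used. Each run gives the 250 bases before the RefSeq transcription start (GRCh38.p14), 5′ to 3′ on the strand of the gene. Capitals mark matches, on either strand, to 5 motifs: the CCAAT box, the ETS-type motif CCGGAAG, the GC box GGGCGG, the cyclic AMP response element TGACGTCA and the NRF1-type motif GCGCATGCG.
FBXO5, chr6:152983580-152983829, minus strand: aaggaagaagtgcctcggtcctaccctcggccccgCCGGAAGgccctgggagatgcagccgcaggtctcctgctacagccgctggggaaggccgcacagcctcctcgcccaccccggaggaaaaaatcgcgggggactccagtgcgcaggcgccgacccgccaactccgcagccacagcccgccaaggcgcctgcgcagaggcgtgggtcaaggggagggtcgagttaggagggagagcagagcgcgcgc
FBXO28, chr1:224113861-224114110, plus strand: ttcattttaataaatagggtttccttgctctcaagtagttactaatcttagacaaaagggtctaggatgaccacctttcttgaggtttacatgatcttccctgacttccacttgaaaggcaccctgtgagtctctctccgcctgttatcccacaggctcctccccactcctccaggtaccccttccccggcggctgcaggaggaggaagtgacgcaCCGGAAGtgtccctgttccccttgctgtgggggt
FBXO34, chr14:55271171-55271420, plus strand: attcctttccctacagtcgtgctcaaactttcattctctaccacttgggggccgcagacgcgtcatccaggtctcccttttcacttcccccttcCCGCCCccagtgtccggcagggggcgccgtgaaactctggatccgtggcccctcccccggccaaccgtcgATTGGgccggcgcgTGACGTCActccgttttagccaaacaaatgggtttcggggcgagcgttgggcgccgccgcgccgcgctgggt
FBXO38, chr5:148383708-148383957, plus strand: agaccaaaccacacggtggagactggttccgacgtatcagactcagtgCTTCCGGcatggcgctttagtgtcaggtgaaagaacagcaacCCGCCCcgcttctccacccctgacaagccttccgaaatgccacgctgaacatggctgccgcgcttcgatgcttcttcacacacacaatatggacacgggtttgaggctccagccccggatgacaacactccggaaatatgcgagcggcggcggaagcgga
The ETS-type motif CCGGAAG occurs once each in the windows of FBXO5, FBXO28 and FBXO38, so it is shared by the gene that fell and 2 that rose, and the CRE motif TGACGTCA lies in that of FBXO34.

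FBXO28, which is known to attach ubiquitin to MYC without leading to its destruction, had 17.2, 23.9 and 14.5 TPM in PRMT1_OV, against 4.52, 5.05 and 5.28 TPM in Mock. The lowest PRMT1_OV value was well above the highest Mock value, and the means of 18.5 ± 4.88 and 4.95 ± 0.391 TPM (SD, n = 3 each) differ 3.74-fold. The log2 fold change was 1.69 (± 0.18 SE, adjusted p = 0.000361 by limma) and ran between 1.19 and 1.85 over the alternatives, all past the threshold. FBXO34 had 20.5, 25.3 and 20.4 TPM in PRMT1_OV, against 6.53, 8.44 and 4.71 TPM in Mock. Its log2 fold change was 1.63 (± 0.19 SE, adjusted p = 0.00052 by limma), with 1.29 after median-of-ratios scaling, and all 19 alternatives passed. These values rest on 482 to 933 recovered reads per PRMT1_OV library and 114 to 208 per Mock library for the 2 genes.

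FBXO38, reported to bring the immune receptor PD-1 to degradation in T cells, had 7.89, 8.89 and 8.40 TPM in PRMT1_OV and 3.70, 3.79 and 2.88 TPM in Mock. The log2 fold change was 1.08 (± 0.13 SE, adjusted p = 0.000603 by limma). FBXO33 had 14.2, 14.4 and 13.1 TPM in PRMT1_OV and 7.34, 5.83 and 5.36 TPM in Mock, a log2 fold change of 1.06 (limma adjusted p = 0.000615). FBXO8, which carries a Sec7 domain beside its F-box, had 14.6, 17.6 and 15.2 TPM in PRMT1_OV and 7.73, 8.84 and 6.44 TPM in Mock, a log2 fold change of 0.96 (limma adjusted p = 0.00117). All 3 genes had groups that were well apart and stayed past the threshold under the 19 alternatives. FBXO16 had 5.93, 5.51 and 4.41 TPM in PRMT1_OV and 2.01, 3.04 and 2.11 TPM in Mock, a log2 fold change of 0.90 (limma adjusted p = 0.00395). FBXO16 shares 51.2% of its exonic bases with ZNF395 on the same strand (31.05 TPM in PRMT1_OV and 31.15 TPM in Mock), so its level is uncertain, and its call was lost under quantile normalization (adjusted p = 0.0538).

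FBXO4, FBXO45, FBXO11 and FBXO7 rose in TPM by 0.57 to 0.86 on the log2 scale. FBXO4, a receptor for the telomere protein TRF1, had 9.90, 10.1 and 8.55 TPM in PRMT1_OV and 4.24, 5.46 and 4.70 TPM in Mock, a log2 difference of 0.86 (± 0.13 SE, adjusted p = 0.00139 by limma). FBXO45, which pairs with the RING protein MYCBP2 rather than with CUL1, had 16.6, 20.7 and 16.4 TPM in PRMT1_OV and 10.4, 12.6 and 8.71 TPM in Mock, a log2 fold change of 0.71 (limma adjusted p = 0.00646). The groups of both were apart, and both passed after median-of-ratios scaling (adjusted p = 0.00683 and 0.0271). FBXO11, the receptor for BCL6, had 10.5, 13.4 and 10.3 TPM in PRMT1_OV and 7.20, 7.68 and 6.92 TPM in Mock, a log2 fold change of 0.58 (limma adjusted p = 0.00734). FBXO7, which is mutated in a familial parkinsonism, had 42.0, 45.4 and 38.7 TPM in PRMT1_OV and 29.9, 28.4 and 25.8 TPM in Mock, a log2 fold change of 0.57 (limma adjusted p = 0.00243). Neither passed after median-of-ratios scaling (adjusted p = 0.0712 for FBXO11 and 0.0536 for FBXO7) or after GC correction (adjusted p = 0.297 and 0.439). FBXO11 shares 25.2% of its exonic bases with MSH6 on the opposite strand (46.3 TPM in PRMT1_OV and 23.25 TPM in Mock). FBXO8 shares 16.5% with CEP44 on the opposite strand (5.935 TPM in PRMT1_OV and 2.786 TPM in Mock). Without a stated strand setting, reads from the shared bases of these pairs cannot be told apart.

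FBXO31 and FBXO32 were not called. FBXO31, a receptor for cyclin D1, had 11.9, 11.7 and 11.1 TPM in PRMT1_OV and 9.63, 10.6 and 6.43 TPM in Mock. Its groups did not overlap, but Mock library 3 lay far below the others of its group and the log2 fold change of 0.37 missed the threshold (limma adjusted p = 0.106). FBXO32, the atrogin-1 of muscle atrophy, had 3.08, 3.61 and 3.48 TPM in PRMT1_OV and 2.22, 2.95 and 2.45 TPM in Mock, a log2 fold change of 0.31 (limma adjusted p = 0.1002). Both changes lay close to the median of all genes, and both passed after rescaling without PRMT1 (adjusted p = 0.0451 for FBXO31 and 0.0435 for FBXO32).

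FBXO5, also called EMI1, inhibits the anaphase-promoting complex, the other large cell cycle ubiquitin ligase, and so protects cyclins before mitosis. The gene (chromosome 6, 152970519 to 152983579, minus strand, GRCh38 with GENCODE 29) stood at 86.1, 109 and 86.2 TPM in PRMT1_OV, against 191, 197 and 165 TPM in Mock. The highest PRMT1_OV value was well under the lowest Mock value, and the means of 93.6 ± 12.9 and 185 ± 17.2 TPM (SD, n = 3 each) have a ratio of 0.507. The log2 fold change was -0.98 (± 0.11 SE, adjusted p = 0.00056 by limma), with -1.35 after median-of-ratios scaling and -1.498 after GC correction, and all 19 alternatives passed with values between -1.498 and -0.87. In reads this is 1884 to 2683 per PRMT1_OV library and 3710 to 4590 per Mock library. FBXO5 was the most abundant receptor in Mock, while SKP2 and FBXL19 were above it in mean TPM in PRMT1_OV. FBXO5 per SKP2 was 0.861, 0.917 and 0.886 in PRMT1_OV and 1.85, 1.85 and 1.86 in Mock, apart in every library (exact two-sided permutation p = 0.1, the smallest possible).

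FBXO27, of the sugar-binding receptors that recognise glycoproteins, was the other FBXO gene that fell. It had 10.96, 11.7 and 12.1 TPM in PRMT1_OV and 13.8, 16.5 and 15.1 TPM in Mock, apart by little, with a log2 difference of -0.35 (± 0.10 SE, adjusted p = 0.0231 by limma). The call was lost without PRMT1_OV replicate 1 (adjusted p = 0.0876) or Mock replicate 2 (adjusted p = 0.0822) and after rescaling without PRMT1 (adjusted p = 0.0688). FBXO2, a sugar-binding relative chosen after its values were seen, also had non-overlapping groups, at 10.9, 9.64 and 9.32 TPM in PRMT1_OV and 12.9, 11.4 and 17.6 TPM in Mock, but its log2 fold change of -0.43 missed the threshold (limma adjusted p = 0.0564) and passed after median-of-ratios scaling (-0.78, adjusted p = 0.0117). FBXO17, another relative of these genes and likewise chosen after its values were seen, rose by 0.57 on the log2 scale (limma adjusted p = 0.000843), so these relatives did not move as a block. FBXO17 was not called after median-of-ratios scaling (limma adjusted p = 0.0979). It was called higher after GC correction (0.40, limma adjusted p = 0.00238) and quantile normalization (0.37, limma adjusted p = 0.00895).

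**Figure D2:**
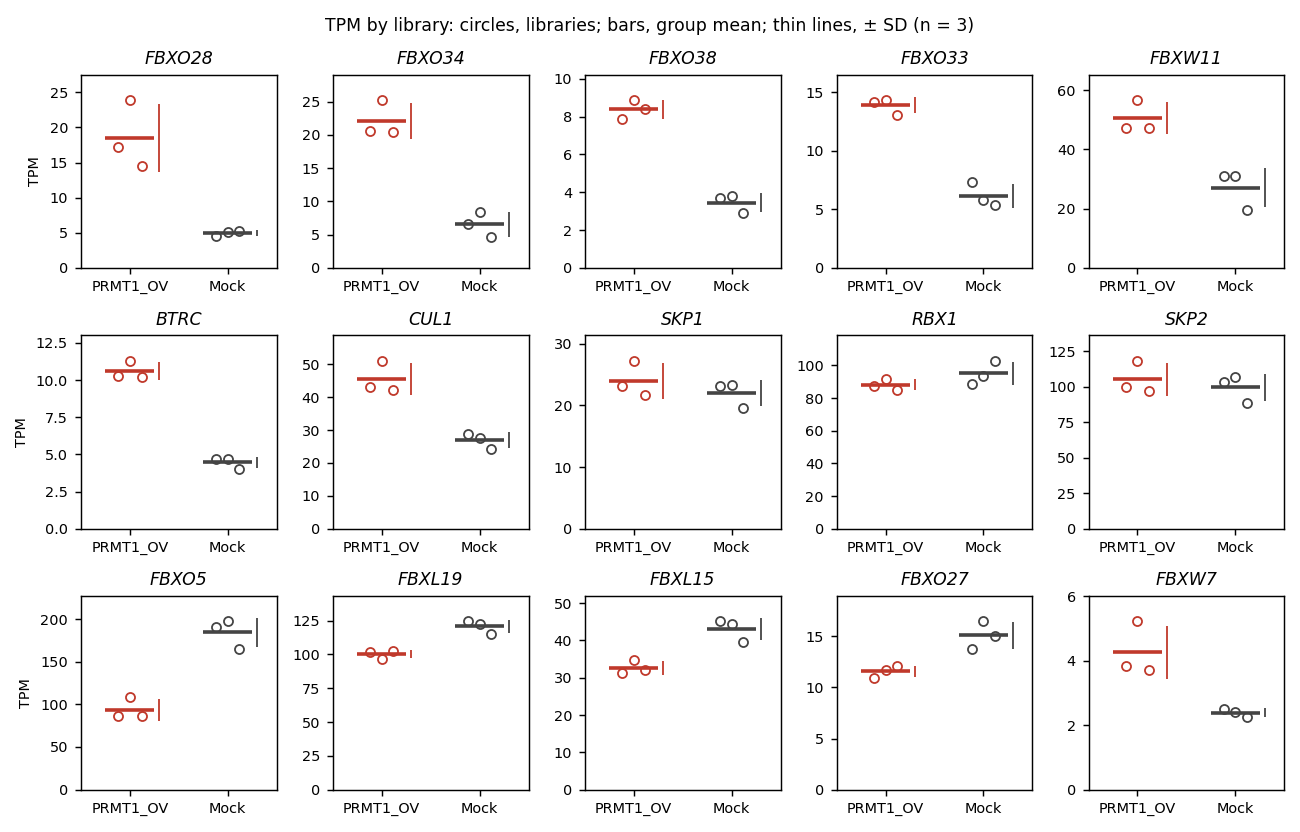
TPM (y axes, starting at 0) of 15 members in the 3 PRMT1_OV libraries (left in each panel) and the 3 Mock libraries (right). Circles are libraries, bars group means and thin lines ± 1 SD. FBXO28, FBXO34 and BTRC are apart with PRMT1_OV above, FBXO5 is apart with PRMT1_OV below, and SKP1, RBX1 and SKP2 overlap.

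Summed over the 63 receptors, the pool of receptor transcripts was somewhat larger in PRMT1_OV in TPM, by an amount that depended on the total it was set against. Median-of-ratios size factors were 1.11, 1.25 and 1.10 in PRMT1_OV libraries and 0.911, 0.922 and 0.821 in Mock libraries. Dividing by them lowers the PRMT1_OV sums and raises the Mock sums. The pool was not summed after that scaling, so its direction is given for TPM only. The sum was 1048, 1144 and 1033 TPM in PRMT1_OV libraries and 999.5, 1022 and 890.2 TPM in Mock libraries. The groups did not overlap but lay close, with means of 1075 ± 60.3 and 970.7 ± 70.7 TPM (SD, n = 3 each) and an exact two-sided permutation p = 0.1, the smallest possible. The log2 difference was 0.15 for this sum, 0.26 per 1000000 TPM outside PRMT1 (1159 in PRMT1_OV and 971 in Mock) and 0.32 without FBXO5 (981 TPM in PRMT1_OV and 786 TPM in Mock). Per SKP1 transcript the pool was 45.4, 42.0 and 47.7 in PRMT1_OV and 43.3, 43.9 and 45.4 in Mock, and here the groups overlapped (exact two-sided permutation p = 0.6). Leaving FBXO5 out of the sum gave a log2 difference of 0.20 for this ratio and the geometric mean of the tested receptors gave 0.41, against 0.03 for the plain sum, so the small difference was that of the plain sum with FBXO5 in it.

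FBXO5 made up 8.22, 9.49 and 8.34% of the receptor pool in PRMT1_OV, against 19.15, 19.3 and 18.5% in Mock, without overlap. FBXL19 held 9.70, 8.45 and 9.95% in PRMT1_OV and 12.45, 12.02 and 12.9% in Mock, and FBXL15 held 3.04 ± 0.056% in PRMT1_OV and 4.44 ± 0.079% in Mock (SD, n = 3 each). FBXW11 (4.69 ± 0.24% in PRMT1_OV and 2.76 ± 0.51% in Mock, SD, n = 3 each) and FBXO7 (3.91 ± 0.14% in PRMT1_OV and 2.89 ± 0.11% in Mock) held larger shares in PRMT1_OV, without overlap. These shares and the other receptor shares with non-overlapping groups had the smallest possible exact two-sided permutation p of 0.1. The 8 receptors with the highest mean TPM made up 51.4 to 51.7% of the pool in PRMT1_OV libraries and 63.4 to 64.1% in Mock libraries. Most of this difference was that of FBXO5, 1 of the 8, with a mean share of 8.7% in PRMT1_OV and 19.0% in Mock. Among the classes, FBXO genes together held 44.1 ± 0.81% in PRMT1_OV and 44.5 ± 0.46% in Mock, an overlap. This class includes FBXO5, whose share was smaller in PRMT1_OV, so its other genes together held a larger share there. FBXL genes held 26.3 ± 0.83% in PRMT1_OV and 27.9 ± 0.46% in Mock, and FBXW genes 18.8 ± 0.49% in PRMT1_OV and 16.9 ± 0.46% in Mock (SD, n = 3 each), both without overlap.

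**Figure D3:**
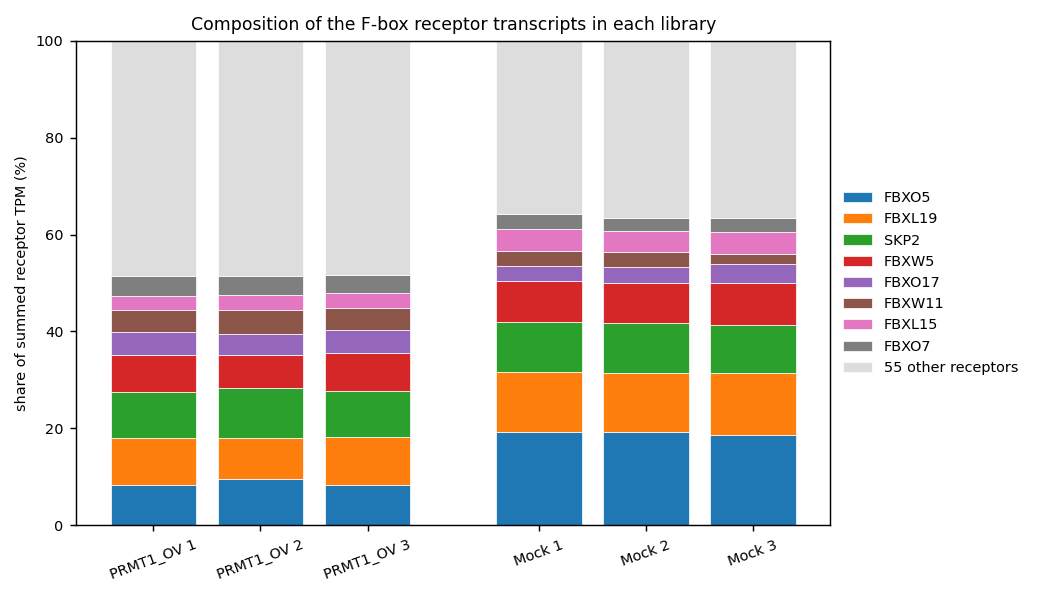
Share (y axis, %) of the summed TPM of 63 F-box receptors taken by the 8 receptors with the highest mean TPM and by the other 55, for each PRMT1_OV library (left) and Mock library (right). FBXO5 takes 8.22 to 9.49% in PRMT1_OV libraries and 18.5 to 19.3% in Mock libraries.

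Another 21 tested members, FBXO2, FBXO17 and FBXW5 among them, held 10 that were higher and 11 that were not called. The 10 were FBXO21, FBXO9, FBXO48, FBXO36, FBXO10, FBXO17, FBXO30, FBXO3, FBXL20 and FBXO25, with log2 fold changes between 0.37 and 0.73 and means between 1.88 and 50.2 TPM in PRMT1_OV and between 0.896 and 33.5 TPM in Mock. Only FBXO21 and FBXO9 of them passed after median-of-ratios scaling. The 11 not called were FBXL4, FBXL8, FBXL16, FBXO2, FBXO41, FBXO42, FBXO44, FBXO46, FBXW4, FBXW5 and FBXW9, with log2 fold changes between -0.43 and 0.42.

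The 13 members that were not tested stayed under 1 TPM in every library, with at most 20 reads per library. They are FBXL7, FBXL13, FBXL22, FBXO6, FBXO15, FBXO24, FBXO39, FBXO40, FBXO43, FBXO47, FBXW10, FBXW10B and FBXW12. FBXW10, named after its values were seen, had 17, 14 and 15 reads in PRMT1_OV libraries and 0, 1 and 1 in Mock libraries, and its near copy FBXW10B had 11, 5 and 3 reads in PRMT1_OV libraries and 0 in the Mock libraries. Reads of these 2 copies cannot be assigned with certainty, and at this depth no level can be given for FBXO39, FBXO40 and FBXO47, with at most 1 read in any library.

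Fold changes of the members went with GC content much as those of all genes did. Across the 53 tested members the Spearman rho of log2 fold change with transcript GC content was -0.28, and across all tested genes it was -0.24. With mean TPM it was -0.25 for the members and also -0.25 for all genes. These are correlations across genes of the same 6 libraries, which are not independent. Of 32 members under the median GC content of all tested genes (49.0%), 24 were higher and 1 lower, with a median log2 fold change of 0.57, where all genes of that range had 0.41. Of the 21 above it, 8 were higher and 3 lower, with a median of 0.25, where all genes of that range had 0.19. The shares of all tested genes called in each range were not counted, so these counts of calls are descriptions only. FBXO5 has the lowest GC content of all tested members, so its fall ran against this trend, and FBXL6 rose with a GC content among the highest. With GC content corrected, 17 members were higher and 9 lower, as given above.

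**Figure D4:**
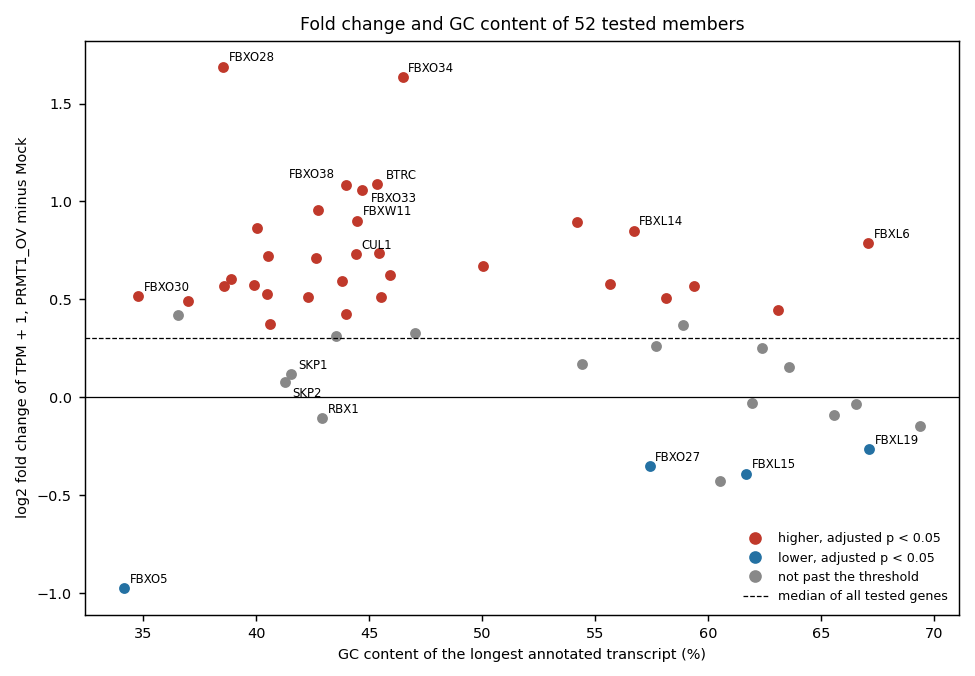
Log2 fold change of TPM + 1 (PRMT1_OV minus Mock, y axis) against the GC content of the longest annotated transcript (%, x axis) for 52 tested members. Colours give the call and the dashed line is the median of all tested genes at 0.30. Most higher members lie under 50% GC, and FBXO5 lies at the lower left, apart from all others.

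The 5 motifs were also counted across the family. A RefSeq promoter window, from 250 bases before to 50 after the start, was at hand for 52 of the 66 members, 40 of them tested, and for 10624 tested genes. Searched on both strands, CCAAT was found in 27.5% of the windows of tested members and 36.9% of all windows, CCGGAAG in 25% and 19.4%, and GGGCGG in 77.5% and 72.2%. TGACGTCA was found in 5% and 3.4%, and GCGCATGCG in 5% and 3.82%, which is 2 member windows each, so no motif was far more frequent in the members. Among the 25 higher members with a window, 36% held the CCAAT box, 28% the ETS-type motif and 76% the GC box. No motif contains another, and a match is a description of letters, not of a bound factor.

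Around the receptors, the genes that switch SCF ligases on moved unevenly. The 8 gene lists used here were chosen with earlier results of these data known, so their counts are descriptions, to be read beside the 40.3% higher and 8.64% lower of all tested genes. Of 13 tested genes of neddylation and cullin exchange 8 were higher and 2 lower (61.5% and 15.4%), with a median log2 fold change of 0.66. UBA3, the catalytic subunit of the NEDD8 E1, had 37.4, 47.6 and 37.8 TPM in PRMT1_OV and 18.9, 16.4 and 16.5 TPM in Mock (log2 fold change 1.19, limma adjusted p = 0.000302), and DCUN1D2, a NEDD8 co-E3, rose by 1.02. The NEDD8 E2 UBE2M fell by 0.39 (585, 523 and 523 TPM in PRMT1_OV, 728, 719 and 686 TPM in Mock, limma adjusted p = 0.0026) and the co-E3 DCUN1D3 by 1.09 (2.17 ± 0.355 TPM in PRMT1_OV and 5.76 ± 0.75 TPM in Mock, SD, n = 3 each). Thus the E1 subunit and the E2 of the same cascade moved in opposite directions. All 4 genes kept their calls after median-of-ratios scaling, where 7 of the list were higher and 3 lower. After GC correction 4 of the list were higher and 3 lower, and after quantile normalization 4 were higher and 1 lower.

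The COP9 signalosome, which reverses neddylation, held 4 higher and 1 lower of 11 tested genes, with a median of 0.13. These shares of 36.4% and 9.09% lie close to those of all genes, and the median lies under the 0.30 of all genes. COPS5, its catalytic subunit, had 26.9, 29.3 and 25.1 TPM in PRMT1_OV and 14.9, 14.7 and 16.3 TPM in Mock (log2 fold change 0.78, limma adjusted p = 0.000619). SENP8, a NEDD8 protease kept in this list, rose by 1.21, while the subunit gene GPS1 fell by 0.37 (limma adjusted p = 0.00313). After median-of-ratios scaling the list held 2 higher and 5 lower genes. Of 14 ubiquitin E1, E2 and cofactor genes 7 were higher (50%) and 0 lower in TPM, with UBE2G1 (1.03, limma adjusted p = 0.00275) and UBA6 (0.89, adjusted p = 0.00313) the largest, but 3 were higher and 6 lower after scaling. Among 10 other cullin and RING genes 4 were higher and 1 lower, which at 40% and 10% are the shares of all genes. The largest were CUL5 (1.09, limma adjusted p = 0.00446) and CUL2 (0.91, adjusted p = 0.00186), with ANAPC11 at -0.24 (adjusted p = 0.033), and after scaling 3 were higher and 5 lower. F-box proteins that carry other symbols had 4 higher (66.7%) and 0 lower of 6 tested, led by cyclin F (CCNF, 28.6 ± 1.24 TPM in PRMT1_OV and 14.5 ± 1.06 TPM in Mock, SD, n = 3 each, log2 fold change 0.93) and KDM2A (0.67). In this last list 2 were higher and 1 lower after median-of-ratios scaling, 4 and 0 after GC correction, and 1 and 0 after quantile normalization.

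Transcripts of known SCF substrates moved both ways. Of 24 tested, 14 were higher and 4 lower (58.3% and 16.7%), with a median log2 fold change of 0.56, and 9 and 5 after median-of-ratios scaling. CRY1, which encodes a clock repressor, had 9.64, 13.9 and 8.80 TPM in PRMT1_OV and 2.93, 2.85 and 3.71 TPM in Mock (log2 fold change 1.48, limma adjusted p = 0.000668). CDKN1B, which encodes the SKP2 target p27, had 38.3, 43.5 and 34.3 TPM in PRMT1_OV and 17.0, 18.1 and 16.7 TPM in Mock (log2 fold change 1.11, limma adjusted p = 0.000256). SKP2 itself was not called, while the transcript of its substrate p27 rose. NFKBIA, which encodes the β-TrCP target IκBα, had 13.5, 13.9 and 15.1 TPM in PRMT1_OV and 40.7, 47.4 and 48.5 TPM in Mock (log2 fold change -1.61, limma adjusted p = 6.99e-05). SNAI1, a target of FBXL14 and β-TrCP, had 3.08, 3.22 and 4.16 TPM in PRMT1_OV and 13.7, 11.05 and 16.4 TPM in Mock (log2 fold change -1.71, limma adjusted p = 0.000283). NFKBIA and SNAI1 were named as the largest falls of the list. For them the receptor transcripts rose and the substrate transcripts fell, but other substrates of these receptors were not compared, and protein levels were not measured.

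Receptors of other cullins had counts like those of the F-box genes. Of 13 tested numbered DCAF genes, the CUL4 receptors, 9 were higher and 0 lower with a median log2 fold change of 0.57, and of 23 tested numbered KLHL genes, mostly CUL3 receptors, 14 were higher and 1 lower with a median of 0.55. After median-of-ratios scaling these were 4 and 2 for DCAF genes and 10 and 5 for KLHL genes. Among the F-box receptors 31 of 50 tested were higher and 4 lower with a median of 0.51, so nothing in these counts is particular to them.

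**Figure D5:**
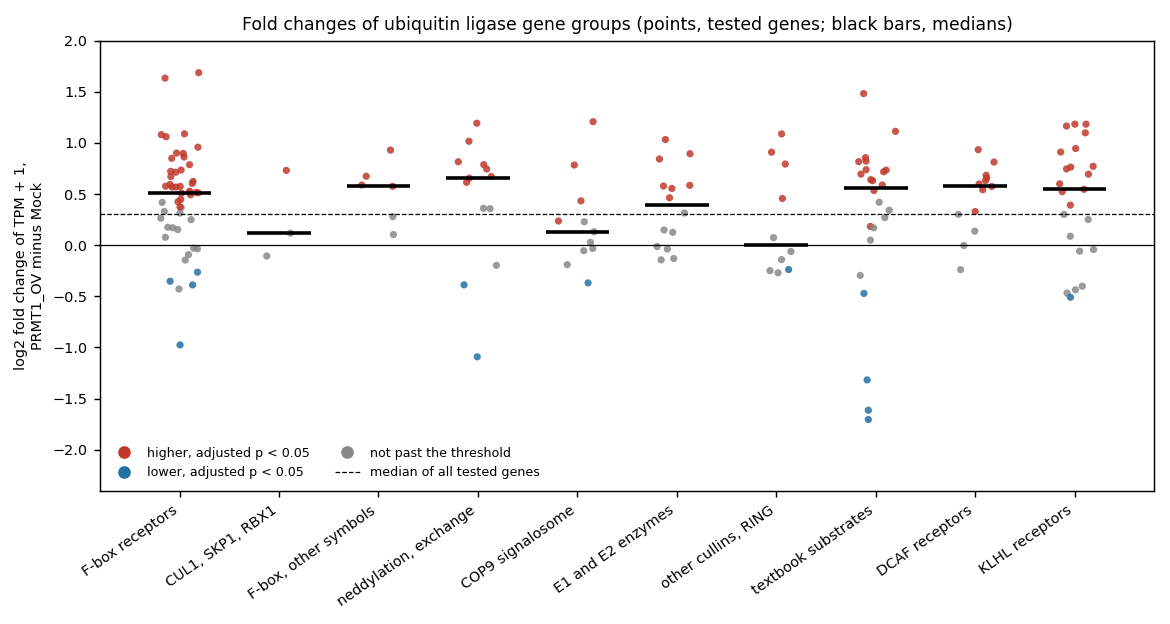
Log2 fold change of TPM + 1 (PRMT1_OV minus Mock, y axis) of every tested gene in 10 groups (x axis): the F-box receptors, the trio of CUL1, SKP1 and RBX1, and the 8 lists. Points are genes coloured by call, shifted sideways at random, black bars are group medians and the dashed line is the median of all tested genes at 0.30. The medians run from 0.01 for other cullins and RING genes to 0.66 for neddylation and exchange genes.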

How the data were processed

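RNA-seq of 3 PRMT1_OV and 3 Mock libraries of HEK293T cells was used. Libraries were made from polyA-selected, fragmented and randomly primed RNA, per the labels' protocols. Per the submitters' processing notes, Trimmomatic 0.36, STAR 2.5.2b, featureCounts and Subread 1.5.2 were used with GRCh38. The TPM values were deposited by the authors as a table of 57500 gene identifiers. For its annotation, strand setting and TPM formula: not given in the sources used here. Gene lengths of GENCODE 29 turned 95.3 to 95.5% of the values under 50 reads into whole reads within 0.05, where chance gives 10%, and this gave the depths. Counting error alone is covered by the limit of 3 reads.

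Genes that reached 1 TPM in 3 or more libraries were tested with limma 3.58.1 (R 4.3.3) on log2(TPM + 1), with a variance trend and Benjamini-Hochberg adjustment at 0.05 over all 15341 genes. The script was checked on simulated data. Ratios within a library were compared with exact two-sided permutation tests (scipy 1.17.1). Alternatives changed the pseudocount (0.1 and 5 TPM), the filter (none and 5 TPM), the scaling (median of ratios, quantile, PRMT1 left out), the GC correction, the replicate block, the variance trend, the weights and the libraries. The members, gene lists and alternatives were chosen with earlier results of these data known. Values by library are given for CUL1, SKP1, RBX1, SKP2 and BTRC, for the members called lower, for the 6 called genes of each class with the largest rise, and for other receptors with well-known roles. A member that entered all counts is not reported by name here, and the plots by gene leave it out. From each list the largest 2 rises and 2 falls among called genes could be named. Promoter sequences are from RefSeq (GRCh38.p14).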

Additional observations from a re-analysis of the deposited data

How the results depend on the processing

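In TPM 32 members were higher and 4 lower, of 6190 and 1325 genes in all. Members numbered 15 and 11 after median-of-ratios scaling, 15 and 8 after quantile normalization, 17 and 9 after GC correction and 16 and 9 with the replicate block and GC correction, and 2 were lower after rescaling without PRMT1. All genes numbered 3448 higher and 3913 lower after median-of-ratios scaling, 3109 and 2979 after quantile normalization, 3613 and 3878 after GC correction and 3268 and 3651 with the replicate block and GC correction. Lower genes alone numbered 880 after rescaling without PRMT1, 2838 with array weights and 2115 without PRMT1_OV replicate 2 and Mock replicate 3. The cause of these shifts was not tested. No scaling turned a higher member into a lower one.

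FBXL18 stood at -0.0146 after quantile normalization. SKP1 stood at -0.25 after median-of-ratios scaling and -0.33 after GC correction, and SKP2 at -0.30 and -0.38, with the same values under GC correction and block. With block and GC correction the call of FBXO4 was lost (adjusted p = 0.0674).

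Leaving out single libraries gave 24 to 30 higher and 3 to 4 lower members, and 5082 to 5634 higher and 935 to 1520 lower genes. The log2 difference of receptors per SKP1 ran from -0.0164 to 0.0750 (0.0255 with all libraries), and was 0.198 without FBXO5, the receptor of highest mean TPM, and 0.413 for the geometric mean. That of SKP1 per CUL1 ran from -0.644 to -0.607, of FBXW11 per BTRC from -0.478 to -0.247, and of SKP2 per CKS1B from 0.166 to 0.275.

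Deviations of equal replicate numbers correlated at -0.0333, 0.0588 and 0.0201. These values show no sign of pairing, but with 3 libraries a group they cannot exclude it. With the replicate block 32 members were higher and 4 lower, 31 of the higher ones the same genes, of 6275 and 1314 genes in all. With 3 libraries a group no permutation test can pass 0.05, and members under 1 TPM had too few reads for a test.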
